A study of Mus musculus with 8 samples.

Results

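The expression of 8 genes of fatty acid handling, on 16 of the 9984 spots and among 2922 named genes, was followed over 8 arrays. They were CD36, ACSF2, ACADS, ACAA2, ECHS1, HADHB, ECI2 and OXSM. All spots annotated with one of these symbols alone were taken, 2 adjacent spots per gene. The genes were chosen by name with earlier results of these data known, among them the scores at matched hours. Those scores are therefore given as a description, and no gene is supported by a test on them.

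The RNA came from C2C12, a line of mouse myoblasts that can be differentiated into muscle fibres in culture. All groups were grown in DMEM with glutamine and fetal bovine serum. The conditioned cells were kept for 14 h (MBC14) or 24 h (MBC24) in medium taken from CAPAN-1 cells, a human pancreatic cancer line. The control cells were kept in control medium for 0 h (MBN0), 14 h (MBN14) or 24 h (MBN24). The arrays were spotted 2-colour arrays of muscle genes, annotated with human genes, so a spot may report the mouse orthologue or a relative of it. Each of the 4 comparisons was run on an array A, where the conditioned RNA carried Cy5, and on an array B, with swapped dyes by the labels' dye field. Both arrays of a comparison carried the same pair of RNAs, which makes them 1 replicate, and an SD over them is technical.

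Fatty acids enter a muscle cell with the help of membrane proteins, are bound to coenzyme A, and reach the mitochondrial matrix through the carnitine shuttle. There beta-oxidation shortens the chain in a repeated cycle of dehydrogenation, hydration, a further dehydrogenation and thiolysis, and each turn releases acetyl-CoA. Auxiliary enzymes move double bonds that the cycle cannot handle. A separate mitochondrial pathway builds short fatty acids, which serve as the precursor of lipoic acid. Beta-oxidation is a main source of energy in resting and endurance muscle.

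Each spot of an array holds 1 deposited score, positive or negative, of unknown scale and log base, so differences are in score units and are not fold changes. Over the 8 arrays the SD of the scores was 1.34 to 1.58, and adjacent spots of a gene correlated at 0.33 to 0.65 with an SD of 0.82 to 1.19. Gene values below are means over both spots after each array was centred on its median. As deposited, arrays A and B correlated below 0 across the named genes in all 4 comparisons (-0.32 and -0.28 at matched 14 h and 24 h, and -0.13 and -0.27 for MBC14 and MBC24 over MBN0). The scores were therefore taken to run from Cy3 to Cy5 on every array, and the sign of array B was turned so that a positive score likely means more RNA in conditioned medium. This is called the Cy5-over-Cy3 reading, and the labels do not settle it. In the other reading, conditioned over control, array B keeps its deposited sign. Those means follow the first ones for the 8 genes, and for other genes where stated. The scores give no level of any transcript, so whether the cells express myoblast markers could not be checked. In bulk RNA, fewer cells of a type and less RNA per cell cannot be told apart.

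At matched hours the fatty acid genes did not move as a block. CD36, ACSF2 and ECHS1 scored above 0 on all 4 matched-hour arrays, HADHB and ACADS scored below 0 on all 4, ECI2 and OXSM lay above 0 at 14 h and below 0 at 24 h, and ACAA2 had no common side. A gene passed the size rule when its mean over arrays A and B reached 1 score unit on either side of 0 with both arrays at 0.5 or more on that side. In MBC14 over MBN14, 5 of 8 genes passed it upward (CD36, ACSF2, ECHS1, ECI2 and OXSM) and 1 downward (HADHB), beside 9.10% and 10.8% of the 2922 genes. In MBC24 over MBN24, 3 passed upward (CD36, ACSF2 and ECHS1) and 3 downward (HADHB, ECI2 and OXSM), beside 7.94% and 9.69%. Because the genes were chosen with these scores known, nothing is read from the excess.

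**Figure D1:**
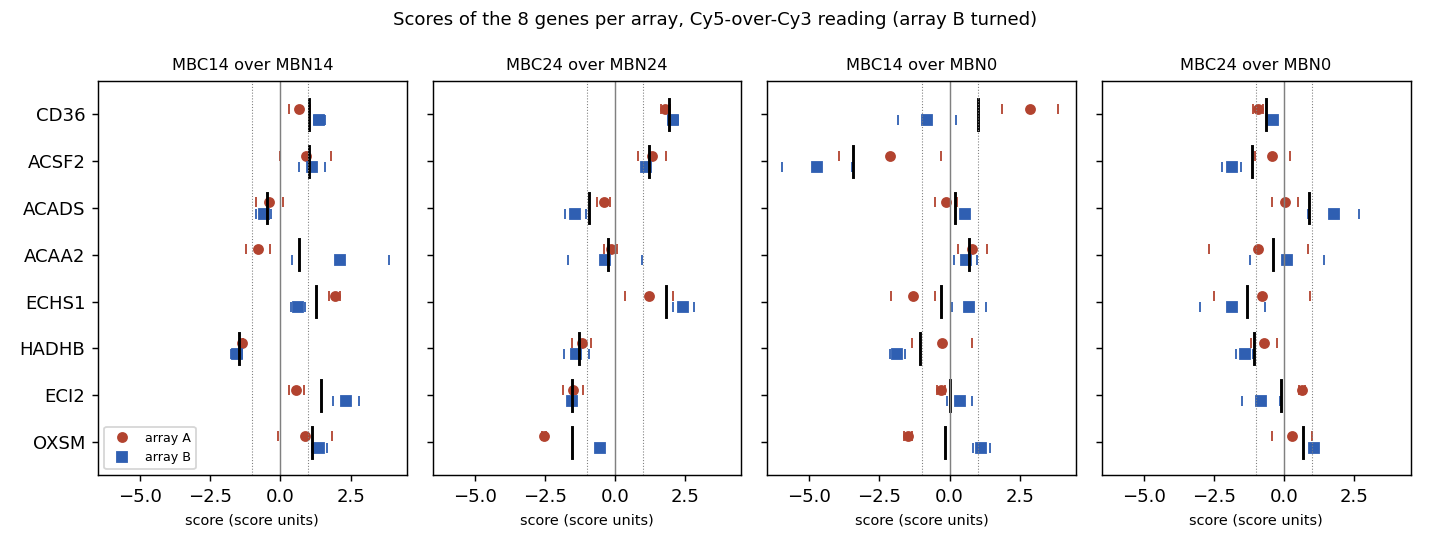
Scores of the 8 genes (rows) in the 4 comparisons (panels), in score units, in the Cy5-over-Cy3 reading. Circles are array A and squares array B (gene means), thin ticks the 2 spots of each, black bars the mean of both arrays, and dotted lines 1 score unit either side of 0. HADHB lies left of 0 on all 8 arrays, and ECI2 and OXSM change sides between the matched-hour panels.

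Uptake was represented by CD36 (Entrez Gene 948), the membrane protein that carries long-chain fatty acids into muscle. In MBC14 over MBN14 CD36 scored 0.67 on array A and 1.39 on array B, with a mean of 1.03 ± 0.51 (SD, n = 2 arrays here and for each ± of a comparison below). At 24 h, in MBC24 over MBN24, it scored 1.80 and 2.08, a mean of 1.94 ± 0.20. The hours thus did not overlap, and the 4 arrays lay on the same side. At 24 h the spots of CD36 agreed closely, at 1.97 and 1.62 on array A and at -2.25 and -1.90 on array B as deposited. In the conditioned-over-control reading these opposite signs cancel, and CD36 averaged -0.36 ± 1.46 at 14 h and -0.14 ± 2.74 at 24 h.

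CD36 is also carried by fat cells, macrophages and endothelium, so markers of those cells were read beside it. Of 4 measured adipocyte genes 0 passed the size rule at either hour, with medians of 0.29 at 14 h and -0.45 at 24 h. Of 8 measured macrophage and blood genes 3 were higher and 3 lower at 14 h, and 2 were higher and 0 lower at 24 h, with medians of 0.49 and 0.41. Over all genes 9.10% were higher and 10.8% lower at 14 h, and 7.94% higher and 9.69% lower at 24 h. CD37, a leukocyte membrane protein, and HBA2, a haemoglobin chain, passed limma, as did 5.20% of all genes. Their matched-hour means were 3.28 ± 0.38 and 3.97 ± 0.41 (SE), with limma adjusted p of 0.00488 and 0.00249. The arrays of HBA2 lay far apart, at 7.25 and 1.66 at 14 h. As conditioned over control CD37 averaged 0.84 at 14 h and -1.17 at 24 h, and HBA2 2.79 and -1.52. The 3 genes lower at 14 h were HBB, another haemoglobin chain (-1.39), LYZ (-1.19) and TYROBP (-1.54). Of 3 measured endothelial genes 1, the tight junction protein CLDN5, was lower at both hours and passed limma at -1.86 ± 0.39 (SE, adjusted p = 0.0301). CLDN5 averaged -0.33 at 14 h and 0.61 at 24 h as conditioned over control, with its arrays on opposite sides at both hours. Of 2 measured epithelial genes 0 passed at either hour. Of 5 measured myoblast and muscle genes, MYOD1 among them, 0 passed at either hour. The part of other cells in the scores of CD36 was not tested.

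Activation was represented by ACSF2 (Entrez Gene 80221), which joins medium-chain fatty acids to coenzyme A. In MBC14 over MBN14 ACSF2 scored 0.91 on array A and 1.12 on array B, a mean of 1.01 ± 0.15, just past the size rule. The 24 h arrays gave 1.31 and 1.12, a mean of 1.21 ± 0.13. All 4 values lay close together, and the hours overlapped. The spots behind the 14 h value on array A were far apart, at -0.01 and 1.82, so the agreement between arrays exceeded that within array A. Read as conditioned over control, ACSF2 averaged -0.11 ± 1.43 and 0.092 ± 1.72.

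The oxidation cycle opens with an acyl-CoA dehydrogenase, and ACADS (Entrez Gene 35) is the one for short chains. ACADS scored -0.40 and -0.59 on arrays A and B of MBC14 over MBN14, a mean of -0.49 ± 0.14. In MBC24 over MBN24 it scored -0.41 and -1.41, a mean of -0.91 ± 0.71. All 4 values were below 0, but neither hour passed the size rule. In the other reading the means were 0.097 ± 0.70 and 0.50 ± 1.29.

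The hydration step is carried out by ECHS1 (Entrez Gene 1892), the short-chain enoyl-CoA hydratase of the matrix. ECHS1 scored 1.93 on array A and 0.63 on array B of MBC14 over MBN14, a mean of 1.28 ± 0.92. At 24 h it scored 1.20 and 2.44, a mean of 1.82 ± 0.87. The arrays of one hour differed by more than the hours did. Its spots diverged as well, from 0.35 to 2.05 on array A at 24 h. In the conditioned-over-control reading ECHS1 averaged 0.65 ± 1.81 and -0.62 ± 2.58.

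HADHB (Entrez Gene 3032) is the beta subunit of the mitochondrial trifunctional protein and carries its long-chain thiolase. In MBC14 over MBN14 it scored -1.38 on array A and -1.56 on array B, a mean of -1.47 ± 0.12. In MBC24 over MBN24 it scored -1.19 and -1.38, a mean of -1.28 ± 0.13. The 4 values lay close together, and the hours came within rounding of each other without overlapping. HADHB was also below 0 on the other 4 arrays, which makes all 8, as were 3.42% of the 2922 genes. The comparisons share RNAs, so the 8 arrays are not independent. Read as conditioned over control, the matched-hour means were 0.086 ± 2.08 and 0.095 ± 1.81.

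The partner subunit HADHA, which carries the hydratase and dehydrogenase of the same complex, was measured on 2 spots too. HADHA scored 0.95 and -0.81 at 14 h and -0.35 and 0.98 at 24 h on arrays A and B. Its arrays thus took opposite sides at both hours, with means of 0.072 and 0.32 and a matched-hour mean of 0.20 ± 0.38 (SE). The matched-hour mean of HADHB was -1.38 ± 0.38 (SE). As conditioned over control HADHA averaged 0.88 at 14 h and -0.66 at 24 h, with its arrays on the same side at each hour. The matched-hour arrays of HADHB took opposite sides in that reading. The difference between the subunits was not tested.

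ACAA2 (Entrez Gene 10449), the matrix thiolase for short and medium chains, gave no common side. On arrays A and B it scored -0.80 and 2.14 at 14 h, a mean of 0.67 ± 2.08, and -0.15 and -0.36 at 24 h, a mean of -0.25 ± 0.15. Its spots were the least alike of the 8 genes, with a median gap of 1.83 score units and the same side of 0 on 4 of 8 arrays. Spots of CD36, at the other end, had a median gap of 0.37. At 14 h in the conditioned-over-control reading ACAA2 averaged -1.47 ± 0.95 and passed the size rule downward. Neither reading gave a call at 24 h, where that reading had 0.10 ± 0.36.

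ECI2 (Entrez Gene 10455) shifts double bonds so that unsaturated fatty acids can enter the cycle, in mitochondria and peroxisomes. In MBC14 over MBN14 it scored 0.56 and 2.35 on arrays A and B, a mean of 1.45 ± 1.26. In MBC24 over MBN24 it scored -1.49 and -1.54, a mean of -1.52 ± 0.04. OXSM (Entrez Gene 54995), the condensing enzyme of mitochondrial fatty acid synthesis, scored 0.87 and 1.39 at 14 h, a mean of 1.13 ± 0.36. At 24 h OXSM scored -2.54 and -0.52, a mean of -1.53 ± 1.43. In both genes the hours did not overlap and lay on opposite sides of 0, as in 7.36% of the 2922 genes. The mean at 24 h minus that at 14 h was -2.97 for ECI2 and -2.66 for OXSM, and this difference was not tested.

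The reading of array B decided these sides in part. As conditioned over control, ECI2 averaged -0.89 ± 2.06 at 14 h and 0.027 ± 2.14 at 24 h. OXSM averaged -0.26 ± 1.6 at 14 h and -1.01 ± 2.16 at 24 h. Its 24 h mean stayed below 0, but its arrays took opposite sides, at -2.54 and 0.52, and it did not pass the size rule. In that reading 1 of 8 genes (ACAA2, downward) passed the size rule at 14 h and 0 at 24 h, beside 6.37% and 6.02% of all genes.

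**Figure D2:**
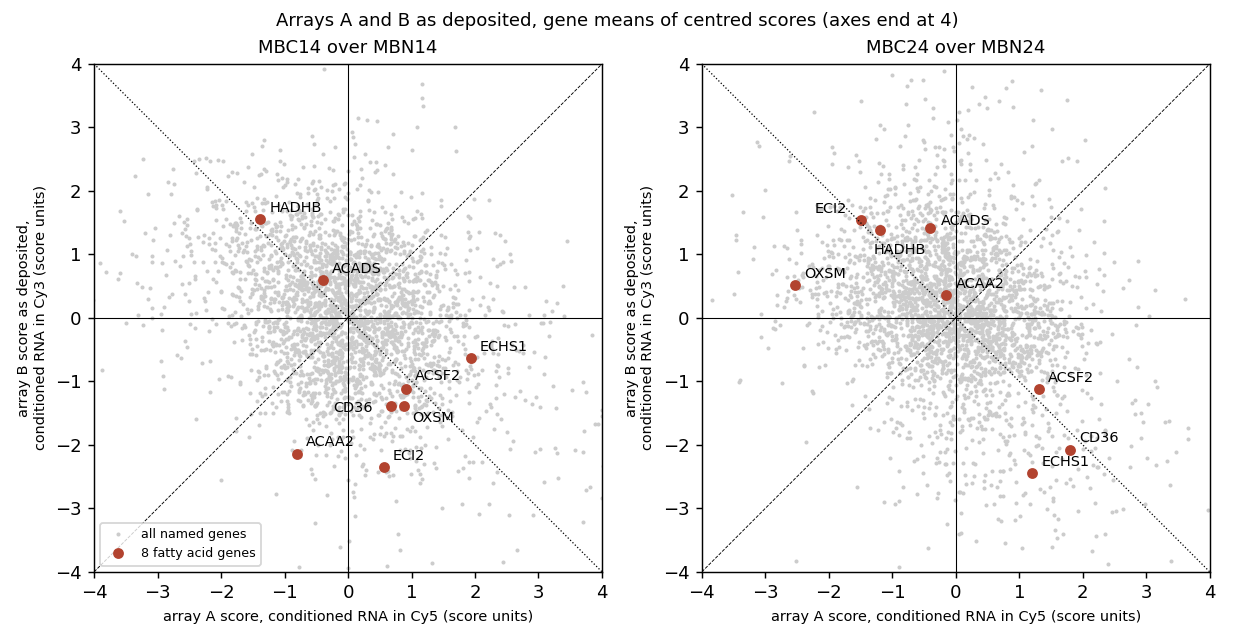
Array A (horizontal) against array B (vertical) as deposited, in score units, for the named genes (grey) and the 8 fatty acid genes (red) at 14 h (left) and 24 h (right). Genes on the dotted diagonal have equal and opposite scores, a common signal only in the Cy5-over-Cy3 reading, and those on the dashed one a common signal only as conditioned over control; 38 genes at 14 h and 49 at 24 h lie beyond the axes. ACSF2 and HADHB lie near the dotted diagonal at both hours, and ACAA2 lies off it at 14 h.

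A shift common to both matched hours was estimated over all named genes with limma. Of the 8 genes 0 passed an adjusted p of 0.05, beside 5.20% of 2922 genes, and 4 had an unadjusted limma p under 0.05, beside 22.8% of all genes. The common shift was 1.55 ± 0.39 (SE) for ECHS1, 1.48 ± 0.41 for CD36, 1.11 ± 0.38 for ACSF2 and 0.21 ± 0.41 for ACAA2. It was -1.38 ± 0.38 for HADHB, -0.70 ± 0.39 for ACADS, -0.20 ± 0.58 for OXSM and -0.031 ± 0.62 for ECI2. CD36, ACSF2, ECHS1 and HADHB passed the size rule on one side at both hours, 4 of 8 beside 6.67% of all genes.

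Conditioned cells were next set against control cells at 0 h. In MBC14 over MBN0 no gene of the 8 passed the size rule upward and 1 passed downward, beside 7.29% and 8.38% of all genes. That gene was ACSF2, which scored -2.12 on array A and -4.73 on array B, a mean of -3.42 ± 1.84. This was the largest mean of the 8 genes in any comparison, and its sign was opposite to that at matched hours. Its spots on array A were at -0.30 and -3.95. For array B of MBC14 over MBN0 the labels disagree on the dyes, and the sign used here follows their dye field. As conditioned over control ACSF2 averaged 1.30 ± 4.84.

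CD36 scored 2.86 and -0.81 on arrays A and B of MBC14 over MBN0, so its mean of 1.03 ± 2.59 rests on array A. In the other reading it averaged 1.83 ± 1.46 and passed upward, ECHS1 (-1.0 ± 0.45) and OXSM (-1.30 ± 0.25) passed downward, and 10.3% of all genes passed. In the Cy5-over-Cy3 reading ECHS1 scored -1.32 and 0.69, and OXSM -1.47 and 1.12. HADHB scored -0.27 and -1.86, a mean of -1.07 ± 1.13, and missed the rule on array A. ACAA2 (0.69 ± 0.17), ACADS (0.21 ± 0.47) and ECI2 (0.030 ± 0.46) lay nearer to 0. HADHB averaged 0.80 ± 1.51, ACAA2 0.12 ± 0.98, ACADS -0.33 ± 0.30 and ECI2 -0.32 ± 0.042 as conditioned over control.

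In MBC24 over MBN0, 0 of the 8 genes passed the size rule upward and 2 downward, beside 8.38% and 10.9% of all genes. They were ECHS1, with -0.79 on array A and -1.85 on array B and a mean of -1.32 ± 0.75, and HADHB, with -0.72 and -1.41 and a mean of -1.07 ± 0.49. ACSF2 scored -0.42 and -1.87, a mean of -1.15 ± 1.03, and CD36 -0.93 and -0.38, a mean of -0.66 ± 0.39. Both lay below 0 on both arrays without passing. ACADS averaged 0.89 ± 1.22, OXSM 0.66 ± 0.54, ECI2 -0.0998 ± 1.04 and ACAA2 -0.41 ± 0.72. As conditioned over control 0 of 8 genes passed, beside 6.84% of all genes. The means there were 0.53 ± 1.87 for ECHS1, 0.34 ± 1.51 for HADHB, 0.73 ± 1.62 for ACSF2 and -0.27 ± 0.93 for CD36. ACADS had -0.86 ± 1.26, OXSM -0.38 ± 0.93, ECI2 0.73 ± 0.14 and ACAA2 -0.51 ± 0.58. In the Cy5-over-Cy3 reading, no gene of the 8 had both arrays of one hour opposite to both of the other against MBN0. That pattern was seen in 8.38% of all genes. With array B as deposited ECI2 had it, at -0.29 and -0.35 for MBC14 and 0.63 and 0.83 for MBC24. The share of all genes was not counted in that reading.

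The control cells themselves were not hybridised against MBN0, so their change was derived by subtraction within each array letter. These values contain the matched-hour score with its sign turned and are no independent support. In MBC24 over MBN0 CD36 averaged -0.66 ± 0.39, while the derived MBN24 over MBN0 was -2.59 ± 0.19, with -2.73 on array A and -2.46 on array B. ECHS1 averaged -1.32 ± 0.75 in MBC24 over MBN0 and -3.14 ± 1.62 in the derived MBN24 over MBN0. ACSF2 averaged -1.15 ± 1.03 and -2.36 ± 0.90 in the same order. The positive matched-hour scores of these 3 genes thus stood beside scores below 0 against MBN0 in both media at 24 h. HADHB averaged -1.07 ± 0.49 in MBC24 over MBN0 and 0.22 ± 0.35 in the derived MBN24 over MBN0, where its arrays took opposite sides. For ECI2 the derived control values were -1.43 ± 0.81 at 14 h and 1.42 ± 1.0 at 24 h, beside 0.030 ± 0.46 and -0.0998 ± 1.04 in conditioned medium. OXSM gave -1.30 ± 1.47 and 2.19 ± 0.89 in control medium. In the conditioned-over-control reading the derived MBN24 over MBN0 was -0.14 ± 3.67 for CD36 and 1.15 ± 4.44 for ECHS1. It was 0.63 ± 3.34 for ACSF2 and 0.25 ± 0.31 for HADHB. ECI2 had derived control values of 0.57 ± 2.02 at 14 h and 0.71 ± 2.00 at 24 h there, both above 0. OXSM had -1.04 ± 1.84 and 0.63 ± 3.09.

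**Figure D3:**
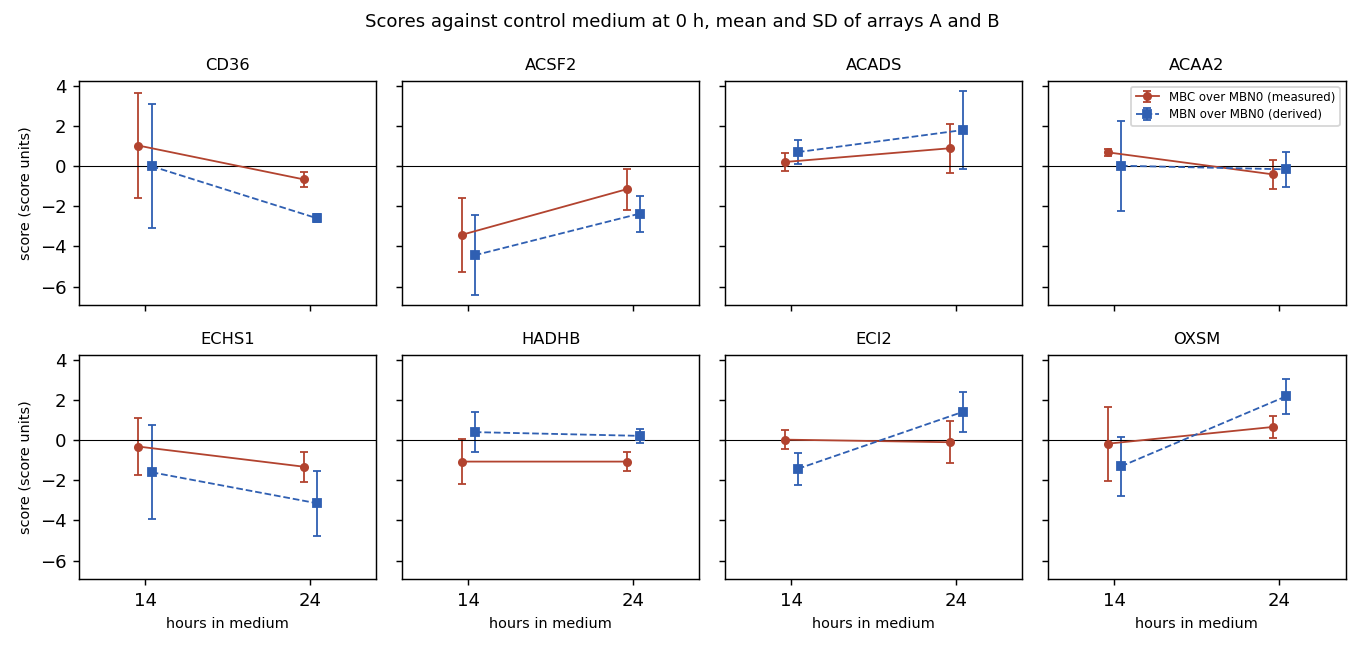
Mean scores against MBN0 at 14 and 24 h for the 8 genes, in score units, in the Cy5-over-Cy3 reading. Circles with solid lines are conditioned medium (MBC, measured), squares with dashed lines control medium (MBN, derived by subtraction), and bars the SD of arrays A and B. CD36, ACSF2 and ECHS1 lie below 0 in both media at 24 h, and HADHB lies below 0 in conditioned medium alone.

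The wider pathway was described with 10 lists of 173 genes, of which 55 were measured, the 8 genes included. Of the 47 others, 1 passed the size rule upward and 2 downward in MBC14 over MBN14, beside the 9.10% and 10.8% of all genes. In MBC24 over MBN24, 0 of the 47 passed upward and 3 downward, beside 7.94% and 9.69%. Their median score was -0.02 at 14 h and -0.16 at 24 h, beside -0.04 and -0.11 over all 2922 genes. Of the 55 genes 0 passed limma, beside 5.20% of all genes, and 8 (14.5%) had an unadjusted limma p under 0.05, beside 22.8% of all genes. Nothing is read from the contrast with the 8 genes, which were chosen with their scores known.

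In uptake and binding, 1 of 6 measured genes (CD36) passed at either hour. FABP4, a fatty acid binding protein of fat cells, had a matched-hour mean of 0.73 ± 0.38 (SE) and the acyl-CoA binding protein DBI -0.75 ± 0.38. In activation, 1 of 5 (ACSF2) passed, and ACSL1, the main long-chain acyl-CoA synthetase of muscle, had 0.69 ± 0.38 with its arrays apart at 14 h (2.34 and -0.82). In the carnitine shuttle 1 of 3 passed at 14 h and 0 at 24 h. That gene was the carnitine carrier SLC25A20, with 0.83 and 1.24 on arrays A and B of MBC14 over MBN14 and a mean of 1.04. SLC25A20 averaged -0.21 at 14 h as conditioned over control. CPT1B, the muscle carnitine palmitoyltransferase at the entry of the shuttle, had -0.75 ± 0.39 (SE) and lay below 0 on all 4 matched-hour arrays.

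In mitochondrial beta-oxidation, 2 of 11 measured genes were higher and 1 lower at 14 h, and 1 higher and 2 lower at 24 h, each of them one of the 8. ECH1, which isomerises double bonds like ECI2, scored below 0 on all 4 matched-hour arrays, with a mean of -0.99 ± 0.39 (SE), but -0.13 on array B at 14 h. In mitochondrial fatty acid synthesis 1 of 4 (OXSM) passed, upward at 14 h and downward at 24 h. MECR, the last enzyme of each elongation round, had 0.30 ± 0.39 and HSD17B8, a subunit of the reductase before it, -0.57 ± 0.39. Of 3 ketone body genes BDH2 passed downward at 14 h (-1.02) and 0 passed at 24 h, and OXCT1 had -0.53 ± 0.40. BDH2 averaged -0.19 at 14 h as conditioned over control. Of 3 peroxisomal genes and of 5 genes of cytosolic synthesis, elongation and desaturation, 0 passed at either hour. ACOX2, a peroxisomal acyl-CoA oxidase, had 0.72 ± 0.38, and HSD17B4, the peroxisomal bifunctional enzyme, -0.41 ± 0.40. TECR, the enoyl-CoA reductase of elongation, had -1.14 ± 0.43, of which array B at 24 h gave -5.08, and the desaturase SCD had -0.66 ± 0.38. TECR averaged -0.60 at 14 h and 3.31 at 24 h as conditioned over control, with both 24 h arrays above 0.

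In triglyceride storage and lipolysis, LPIN1, a phosphatidate phosphatase, was the 1 of 7 that passed, downward at 24 h, with a mean of -2.0 and a matched-hour mean of -0.83 ± 0.54 (SE). LPIN1 averaged 0.47 at 24 h as conditioned over control. AGPAT1, an acyltransferase of glycerolipid synthesis, had 0.59 ± 0.39. Among 8 regulators, RXRA, the nuclear receptor that pairs with the PPARs, scored -1.44 and -0.68 at 14 h and -1.52 and -0.90 at 24 h. It passed the size rule downward at both hours, with a matched-hour mean of -1.14 ± 0.38. ESRRA, a nuclear receptor of oxidative metabolism, passed downward at 24 h with -1.46 and had a matched-hour mean of -1.14 ± 0.40. PDK2, a kinase that restrains pyruvate dehydrogenase, had -0.80 ± 0.38. PPARA scored 2.29 and -0.29 on arrays A and B at 14 h and passed at neither matched hour. In the conditioned-over-control reading RXRA averaged -0.38 and -0.31, and ESRRA averaged -0.59 and 0.65. The arrays of both genes took opposite sides at both hours in that reading, so neither kept its side on both arrays.

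**Figure D4:**
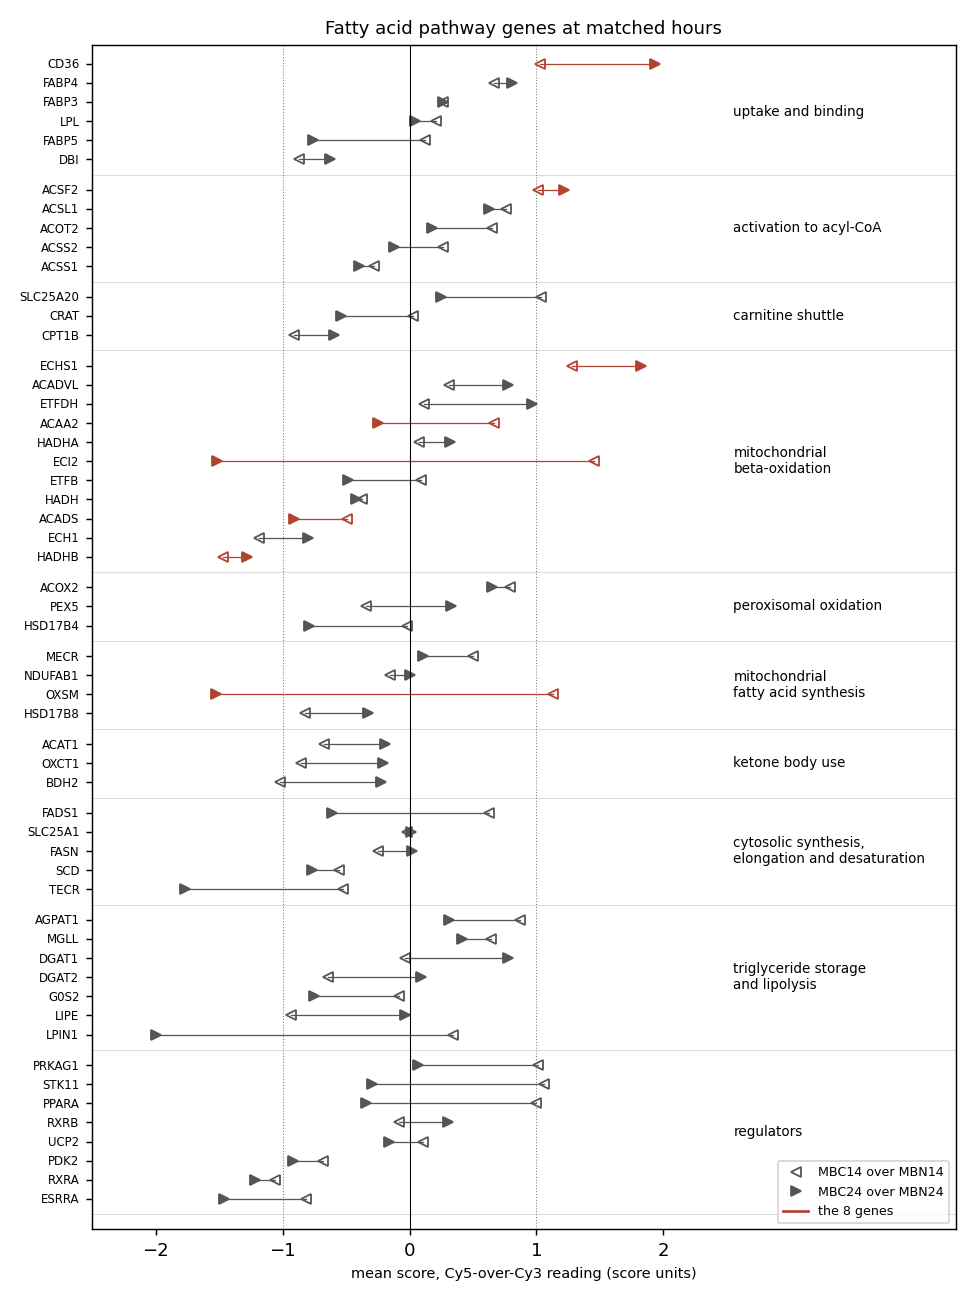
Mean scores of the 55 measured pathway genes in MBC14 over MBN14 (open triangles pointing left) and MBC24 over MBN24 (filled triangles pointing right), in score units, in the Cy5-over-Cy3 reading, grouped by list, with the 8 genes in red and dotted lines 1 score unit either side of 0. By the mean of both hours CD36, ACSF2 and ECHS1 top their lists, HADHB is last in its own, and RXRA and ESRRA are the lowest regulators, while ECI2 lies above ECHS1 at 14 h and below HADHB at 24 h.

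The 8 genes resembled each other little over the arrays. Over the 8 arrays in the Cy5-over-Cy3 reading, the highest Pearson r between any pair of them was 0.66, for ECI2 and OXSM, and the lowest -0.76, for ACADS and ECHS1. CD36 and ACSF2 had 0.44, and ECHS1 and HADHB -0.48. The arrays share RNAs and come in dye-swapped pairs, so these are descriptions over 8 points. Among all named genes, the pattern most like that of CD36 was that of CALR, the endoplasmic reticulum chaperone calreticulin (r = 0.99, n = 8 arrays), and next MTDH (0.97). With array B as deposited those values were 0.49 and 0.38. ECHS1 was most like CHLSN (0.95) and DMAC2 (0.94), and these stayed at 0.93 and 0.94 in the other reading. HADHB was most like SLC25A11, the mitochondrial carrier of oxoglutarate and malate (0.92, but 0.51 as deposited), and SAP30BP (0.91 in both).

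For ACADS the genes most alike were HSPE1, the mitochondrial chaperonin cofactor (0.94), and GPC3 (0.93), and these had 0.94 and 0.95 in the other reading. ACSF2 was most like SLC35B2 (0.95, but 0.56 in the other reading) and E2F4 (0.95 in both). ACAA2 was most like ADAT2 (0.97) and EEF1A2 (0.93), with 0.78 and 0.70 in the other reading. ECI2 was most like IFI35 (0.92) and TM4SF1 (0.90), with 0.88 and 0.90 there. OXSM was most like FOSL2 (0.96) and HSD17B4 (0.92), but had 0.71 and 0.55 with them there. HSD17B4 belongs to the peroxisomal list, and was the only pathway gene among these 16.

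Mouse promoter windows in RefSeq's table of GRCm38.p6 were read for 7 of the 8 genes, all but Acaa2. For the 8 genes the search left out windows on a single excluded chromosome, so the table may still hold one for Acaa2. The shares over all windows given below include that chromosome. The 250 bases before the start are shown for Cd36 and Echs1, whose genes had the highest common shifts, and for Hadhb, which had the lowest. Capitals mark the motifs searched on both strands, AGGTCA (the half-site bound by nuclear receptors such as RXR with a PPAR), GGGCGG (a GC box) and CCAAT. The Cd36 window is chr5:17835897-17836146 on the minus strand, the Echs1 window chr7:140116422-140116671 on the minus strand and the Hadhb window chr5:30155003-30155252 on the plus strand.
Cd36: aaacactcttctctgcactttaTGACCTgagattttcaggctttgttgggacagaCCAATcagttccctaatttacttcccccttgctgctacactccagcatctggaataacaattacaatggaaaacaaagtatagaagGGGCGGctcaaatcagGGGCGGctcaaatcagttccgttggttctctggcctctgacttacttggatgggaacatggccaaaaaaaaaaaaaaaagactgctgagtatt
Echs1: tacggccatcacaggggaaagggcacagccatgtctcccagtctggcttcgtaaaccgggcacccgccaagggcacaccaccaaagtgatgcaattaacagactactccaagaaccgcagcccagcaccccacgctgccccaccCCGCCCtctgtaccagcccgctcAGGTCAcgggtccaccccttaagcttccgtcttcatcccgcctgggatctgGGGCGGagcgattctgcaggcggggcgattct
Hadhb: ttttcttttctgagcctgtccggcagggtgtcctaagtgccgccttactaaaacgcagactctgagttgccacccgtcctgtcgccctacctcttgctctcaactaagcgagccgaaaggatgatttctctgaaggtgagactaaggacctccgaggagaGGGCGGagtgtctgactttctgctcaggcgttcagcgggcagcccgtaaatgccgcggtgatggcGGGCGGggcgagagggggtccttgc

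AGGTCA occurred in the windows of 3 of the 7 genes (Cd36, Echs1 and Oxsm, the last in 2 of its 3 windows), and 14.0% of the 32851 windows in the table hold it. Its near end lay 223 bases before the start in Cd36, where it reads TGACCT, and 78 bases before it in Echs1. The Hadhb window holds no such match. GGGCGG occurred in all 7 genes (1 of the 3 Oxsm windows lacks it), beside 32.7% of all windows, and CCAAT in 2, Cd36 and Eci2, beside 33.8%. The Hadhb window is largely that of its neighbour Hadha, which is read from the opposite strand. The 300-base windows of the pair share 228 bases. On the arrays, in the Cy5-over-Cy3 reading, HADHB lay below 0 throughout while HADHA had no common side at matched hours. As conditioned over control, the matched-hour arrays of HADHA shared a side at each hour and those of HADHB did not. A match describes these letters alone, and no binding was measured here.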

How the data were processed

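RNA of C2C12 myoblasts was hybridised to 8 2-colour arrays in 4 dye-swapped comparisons, per the labels. The values are 1 signed score per spot as deposited by the authors. Background correction, normalisation, scale, log base and direction of the score are not given in the sources used here. No scanner signal was used, so dim spots could not be told from bright ones, and the number of arrays limits the precision. For MBC14 over MBN0, array B, the labels' dye field and labelling text disagree, and the dye field was used.

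Each array was centred on its median. Of 9984 spots, 6610 list 1 gene in the platform annotation of 2016, 106 several and 3268 none. Spots of a gene were averaged. The design assumed log2 ratios and was applied to the scores unchanged. limma 3.58.1 (R 4.3.3) was fitted over all 2922 genes to 2 values per gene, MBC14 over MBN14 and MBC24 over MBN24, two-sided, with Benjamini-Hochberg adjustment. No label names separate cultures, so its errors cover the spread of those 2 values alone, which may be technical. The fit was tested on simulated data.

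The members and lists were chosen with earlier results of these data known. Named genes are the 8, the 2 most like each by Pearson r, and per list those past the size rule at both matched hours on one side or past limma, plus up to 2 by the size of the matched-hour mean. HADHA and PPARA were picked after values were seen. Alternatives covered the reading of array B, centring, spot median, array scale, threshold, single array letters, the replicate block and all 4 comparisons in the fit.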

Additional observations from a re-analysis of the deposited data

Results flagged for a closer look

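ECI2 and OXSM drew attention because both arrays of MBC14 over MBN14 and both of MBC24 over MBN24 lay on opposite sides of 0 in the Cy5-over-Cy3 reading. The matched-hour mean at 24 h minus that at 14 h was -2.97 for ECI2 and -2.66 for OXSM. The difference was not tested, and 7.36% of all named genes show the same pattern. In the conditioned-over-control reading these differences were 0.92 ± 4.2 and -0.75 ± 3.76 (SD, n = 2 arrays).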

How the results depend on the processing

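The matched-hour fit called 152 genes, 86 with the array letter as a replicate block (correlation of arrays within a comparison -0.10, from mean squares over all genes, because limma's own estimate needs more arrays), 9 with all 4 comparisons, 2 after centring on 11 neighbouring spots and 0 in the conditioned-over-control reading (91 at an unadjusted p under 0.05). Leaving out one array letter gave 0 to 128, the 0 without array A (303 at an unadjusted p under 0.05). The letter marks the dye orientation, not a shared culture, so it pairs no samples. Of the 8 genes, chosen with these scores known, CD36 passed after centring on 51 neighbouring spots alone (limma adjusted p = 0.0282, 0.0689 in the fit described above, 0.274 after centring on 11), and ECHS1 with spot medians alone (0.0433, against 0.0536). The spot median leaves the value of a gene with 2 spots as it is, so its adjusted p moves only through what the fit and the adjustment share over all genes. The SE of ECHS1 went from 0.392 to 0.396, and the genes called from 152 to 189.

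The size rule passed 581, 515, 458 and 563 genes at matched 14 h, at matched 24 h, and for MBC14 and MBC24 over MBN0. In that order it passed 186, 176, 302 and 200 as conditioned over control, and 244, 233, 183 and 209 at thresholds of 1.5 and 0.75. A single letter gave 994 to 1006, 950 to 981, 947 to 1015 and 960 to 1005, because 1 array then decides. Centring on 11 neighbouring spots gave 365 in the first. Of the 8 genes, 6 passed at each matched hour, 4 at each after centring on 51 neighbouring spots, 2 at 14 h and 3 at 24 h after centring on 11, and 0 and 3 at the stricter thresholds. With no centring 4 passed at 14 h, where CD36 (0.985) and ACSF2 (0.968) came just under 1, and 2 passed there without array B. Against MBN0, 1 of the 8 passed for MBC14 and 2 for MBC24. Without array A these were 3 and 5, without array B 4 and 0, after centring on 51 neighbouring spots 2 and 1, on 11 of them 1 and 0, and at the stricter thresholds 1 and 0. Over all genes the 24 h median was -0.11, and -0.01 after centring on 51 neighbouring spots.

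Of the 15 passing values of the 8 genes, 12 changed sign as conditioned over control and 0 under the other alternatives run on single values. The 12 were ACSF2 (-0.11 in MBC14 over MBN14, 1.30 in MBC14 over MBN0), CD36 (-0.36 at 14 h and -0.14 at 24 h matched), ECHS1 (-0.62 in MBC24 over MBN24, 0.53 in MBC24 over MBN0), HADHB (0.086 at 14 h and 0.095 at 24 h matched, 0.34 in MBC24 over MBN0), ECI2 (-0.89 at 14 h and 0.027 at 24 h matched) and OXSM (-0.26 in MBC14 over MBN14). The sign of array B is what the conditioned-over-control reading changes. The 0 was largely fixed beforehand, because a value past the size rule has both arrays on its side. Leaving out a letter, scaling, the spot median or no centring could therefore not turn it. Only the centrings on neighbouring spots could have done so. The cause of the other shifts was not tested.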
